A study of Mus musculus with 10 samples.

Results

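Chst15, Chst11, Chst12, Chst3, Chst7, Chst14 and Chsy1 encode enzymes that build and sulfate chondroitin and dermatan sulfate chains, and B3galnt1 encodes a transferase of glycosphingolipids. Every probe set annotated to 1 of these 8 genes alone was taken, which gave 10 of the 45101 probe sets on the arrays: 2 each for Chst15 and Chst11 and 1 each for the others. The genes were chosen by name from a list drawn up when results of these arrays were known, the fall of Chst15 in the preshocked KO-labelled arrays among them, and which values led to the others is not recorded. Of the 8 genes, 7 were among the 10915 genes tested. Chst3 did not pass the filter on dim genes, which kept the brightest 60% of genes by mean, and B3galnt1 passed it through its signal in the rescue-labelled arrays. A further probe set, shared by a member and another gene, was not used.

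Total RNA of mouse embryonic fibroblasts was hybridised to 10 Affymetrix mouse arrays. Preshocked cells of the hsp70 (-/-) line (3 arrays, numbered 5, 11 and 13 in the labels) were grown for 20 hours, heated at 43 °C for 30 minutes in a water bath and harvested 3 hours later, and unheated cells of that line (3 arrays, numbered 6, 12 and 14) were harvested at 23 hours. Preshocked and unheated cells of the (+/+) line, which the series' text calls rescue cells, were handled in the same ways (2 arrays each, numbered 31 and 43, and 32 and 44). The lines are called KO-labelled and rescue-labelled here. Each genotype is represented by a single line, each array by the pooled lysates of 144 wells, and the labels do not say whether the arrays of a group came from separate cultures, so the p-values reflect only how far these samples lie apart, which may be technical. The KO-labelled arrays carry numbers 5 to 14 and the rescue-labelled arrays 31 to 44, so the line and the range of array numbers cannot be told apart.

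Chondroitin sulfate is a chain of alternating glucuronic acid and N-acetylgalactosamine that is built on core proteins in the Golgi apparatus and reaches the cell surface and the matrix. Chain-building synthases such as Chsy1 extend it, and sulfotransferases then add sulfate at carbon 4 (Chst11, Chst12) or carbon 6 (Chst3, Chst7) of the galactosamine. Chst14 sulfates carbon 4 in dermatan sulfate, in which part of the glucuronic acid has been epimerised to iduronic acid, and Chst15 adds a further sulfate to carbon 6 of units that already carry one at carbon 4, which gives the highly sulfated chondroitin sulfate E. Fibroblasts make both kinds of chain, on decorin, biglycan and versican among others. B3galnt1 acts in another pathway: it adds N-acetylgalactosamine to globotriaosylceramide and so makes globoside.

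The sequences upstream of the starts listed by RefSeq (GRCm38.p6) were described apart from the array signal. The window taken was 250 bases long, and all 8 genes matched the table by symbol, Chst15 with 2 starts. GGGCGG or its reverse complement CCGCCC, the core letters of the SP1 motif, stood in 9 of 9 windows of the genes described here, against 32.7% of 32851 windows of 27025 genes. The windows were rich in G and C, at 54.8% to 70.0% against a median of 52.4% over all windows, and of the 13863 windows with at least 54.8%, 64.4% held the motif. That bound is the lowest of the 9 windows, and the share at the higher contents of the others was not computed. The 2 windows of Chst15 also overlap, so the motif is not read as a trait of these genes. A pair of heat shock element units facing each other, GAANNTTC, stood only in the window of Chst7, at 128 bases before the start and close to a GGGCGG, against 6.69% of all windows. On both strands, none of the 9 windows held TTCNNGAA (7.17% of all windows), TGANTCA (6.75%), TGACGTCA (1.55%) or TATAAA (12.4%). The windows of Chst14, Chsy1 and B3galnt1, which lie outside the span of the gene, are shown whole. Around the matches of Chst15, Chst11 and Chst7, whose windows lie inside the span, 30 bases are shown. Chst14, Chst15, Chst11 and B3galnt1 are shown because the results turn on them, Chsy1 for comparison and Chst7 for its heat shock element letters. Capitals mark the SP1 letters and, in Chst7, those of the heat shock element, and the letters run 5′ to 3′.
Chst14, chr2:118926247-118926496, plus strand: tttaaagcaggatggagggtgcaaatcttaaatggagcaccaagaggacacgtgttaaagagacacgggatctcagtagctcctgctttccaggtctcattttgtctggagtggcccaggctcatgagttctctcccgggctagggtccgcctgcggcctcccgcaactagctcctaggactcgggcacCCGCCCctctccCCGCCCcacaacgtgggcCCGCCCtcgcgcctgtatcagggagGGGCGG
Chsy1, chr7:66109242-66109491, plus strand: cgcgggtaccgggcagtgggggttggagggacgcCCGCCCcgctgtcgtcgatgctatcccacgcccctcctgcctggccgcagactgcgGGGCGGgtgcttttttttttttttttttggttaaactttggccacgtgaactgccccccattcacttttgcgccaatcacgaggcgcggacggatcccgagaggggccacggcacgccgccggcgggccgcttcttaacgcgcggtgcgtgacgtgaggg
B3galnt1, chr3:69598961-69599210, minus strand: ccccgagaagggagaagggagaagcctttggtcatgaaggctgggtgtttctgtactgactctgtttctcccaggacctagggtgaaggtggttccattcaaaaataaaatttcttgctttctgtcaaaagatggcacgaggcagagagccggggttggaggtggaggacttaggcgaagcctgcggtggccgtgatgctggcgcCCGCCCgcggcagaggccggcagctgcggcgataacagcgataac
Chst15, chr7:132317304-132317333, minus strand: tgctgggcgaggGGGCGGggaccaaaccca
Chst11, chr10:82985326-82985355, plus strand: cgctCCGCCCcggcgcggccCCGCCCtccc
Chst7, chrX:20059426-20059455, plus strand: cgtaagtGGGCGGggaGAAGTTTCgggtac
A match is a description of these letters. In Chst14, 4 of them lay within 61 bases of the start. B3galnt1 had 1, at 45 bases before it, and Chst15 had 1, at 93 bases before the start shown.

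The deposited values are intensities on a linear scale, and log2 values were quantile normalized for the tests. Array medians lay between 50.7 and 73.7 in 8 arrays and at 100.4 and 107.0 in the KO-labelled pair numbered 5 and 6. Of the 10 fibroblast genes listed, Vim had a deposited intensity of 21118 to 50033. Thy1 was dim, at 61.0 to 122, and Fap stood at or under 48.7 and did not pass the filter. The 10 genes summed to 71664 to 119465 in KO-labelled and 99794 to 110241 in rescue-labelled arrays. Of the genes of other cell types, 7 epithelial ones summed to 194 to 1275 in KO-labelled and 170 to 263 in rescue-labelled arrays, with Epcam reaching 475 and Cdh1 at or under 27.4. Macrophage and leukocyte genes (7) summed to 754 to 1786 in KO-labelled and 887 to 1005 in rescue-labelled arrays, with Cd14 reaching 768 and Ptprc at or under 69.6. Endothelial genes (6) summed to 83.8 to 490.0 in KO-labelled and 164 to 243 in rescue-labelled arrays, with Kdr reaching 239 and Pecam1 at or under 19.4. Adipocyte genes (5 on the arrays) summed to 97.0 to 205 in KO-labelled and 139 to 147 in rescue-labelled arrays, and these lists' part in the results was not tested. Hspa1b, an inducible Hsp70 gene, had a deposited intensity of 19912 to 31556 in preshocked and 212 to 477 in unheated KO-labelled arrays. In rescue-labelled arrays it was 24677 to 37506 in preshocked and 465 to 675 in unheated cells. The heat treatment is thus visible in both lines, but the rise in the line labelled knockout goes against a loss of this transcript, and the place of its probe sets with respect to the deletion was not analysed here. Each difference between the lines is therefore a difference between arrays with these labels.

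**Figure D1:**
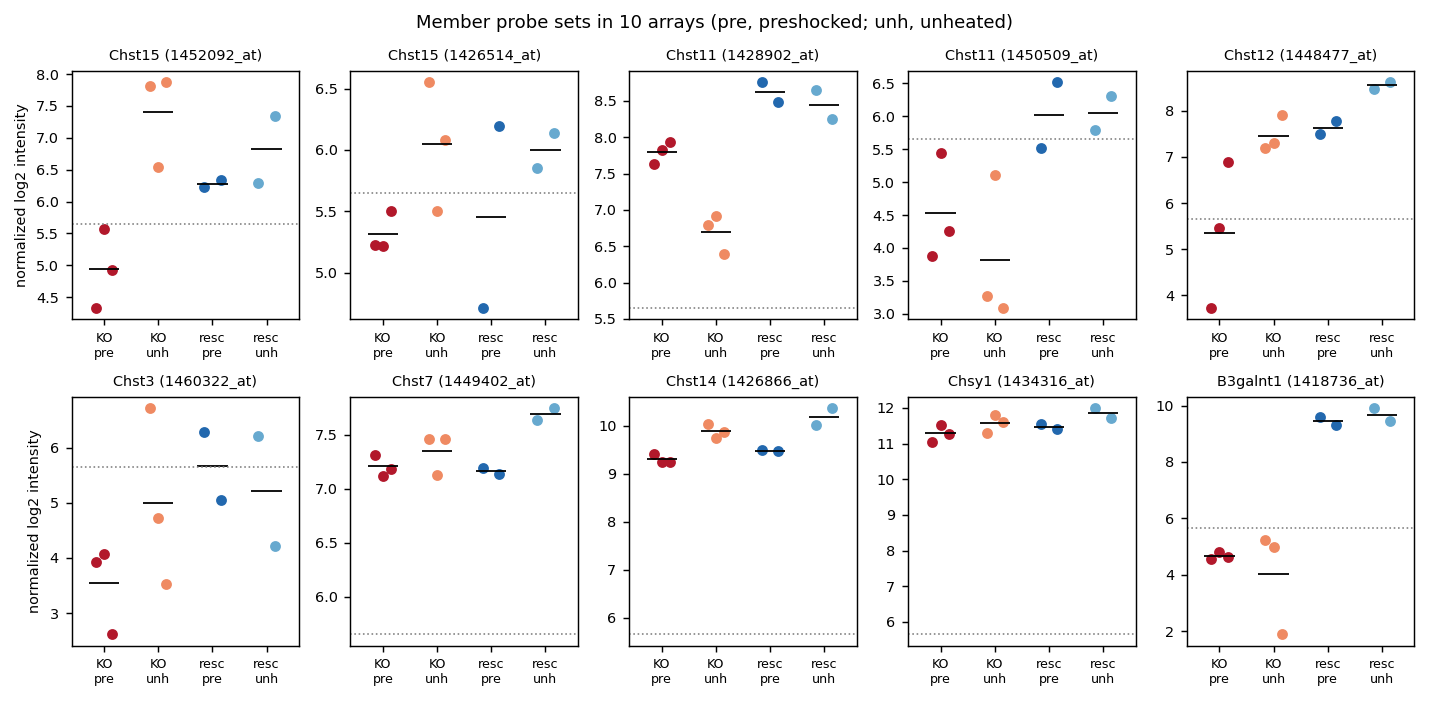
Normalized log2 intensity of the 10 probe sets in each of the 10 arrays, 1 panel per probe set, with groups along the x axis, points for arrays, short black lines for group means, and a dotted line at 5.65, the mean of the dimmest gene tested. On its brighter probe set Chst15 sits lowest in the preshocked KO-labelled arrays, and B3galnt1 sits near or under the dotted line in all KO-labelled arrays. Each panel has its own y axis, and levels are not comparable between panels.

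The chain-building synthase Chsy1 showed small differences between groups, with the same direction in every pair. Its normalized log2 intensity was 11.05, 11.52 and 11.27 in preshocked and 11.29, 11.81 and 11.60 in unheated KO-labelled arrays. In rescue-labelled arrays it was 11.55 and 11.40 in preshocked and 11.99 and 11.71 in unheated cells. The groups overlapped in the KO-labelled line and did not overlap in the rescue-labelled line, where both preshocked arrays were lower. In each of the 5 pairs of adjoining array numbers the preshocked array was lower, by 0.24 to 0.44 log2. The log2 change with preshock was -0.28 ± 0.19 for KO-labelled and -0.37 ± 0.23 for rescue-labelled cells (SE), with a limma adjusted p of 0.680 and 0.812. With adjoining array numbers as a block in that fit, adjusted p was 0.0681 and 0.0882.

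Of the members that sulfate carbon 4 of chondroitin, Chst11 was higher and Chst12 lower in the preshocked array of each pair, on the probe sets used for the tests. Between the lines both stood higher in the rescue-labelled arrays, preshocked and unheated. On its brighter probe set Chst11 had a normalized log2 intensity of 7.63, 7.82 and 7.94 in preshocked KO-labelled arrays, against 6.79, 6.92 and 6.39 in unheated ones. The rescue-labelled arrays stood at 8.76 and 8.49 when preshocked, against 8.65 and 8.25 when unheated. In the KO-labelled line every preshocked array was above every unheated one, whereas in the rescue-labelled line the groups overlapped, and all 4 rescue-labelled arrays were above all 6 KO-labelled arrays. The means were 7.80 ± 0.15 in preshocked and 6.70 ± 0.28 in unheated KO-labelled arrays (SD, n = 3 each), and 8.62 ± 0.19 and 8.45 ± 0.28 in preshocked and unheated rescue-labelled ones (SD, n = 2 each). With preshock the log2 change was 1.10 ± 0.19 for KO-labelled and 0.18 ± 0.23 for rescue-labelled cells (SE). The second probe set of Chst11 was dim, with means of 4.53 and 3.82 in preshocked and unheated KO-labelled arrays and a change of 0.71 ± 0.65. In the rescue-labelled line its change was -0.03 ± 0.80. Averaging both probe sets gave 0.90 for the gene in the KO-labelled line, which was not called (limma adjusted p = 0.384).

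Chst12 was lower in preshocked arrays and spread widely among them. Its normalized log2 intensity was 3.73, 5.46 and 6.90 in preshocked KO-labelled arrays, against 7.19, 7.30 and 7.91 in unheated ones. In rescue-labelled arrays it was 7.51 and 7.77 when preshocked, against 8.47 and 8.63 when unheated. The groups did not overlap in either line, but the preshocked KO-labelled arrays lay far apart, and their mean of 5.36 ± 1.59 (SD, n = 3) lies under 5.65, where the dimmest gene tested stood, which leaves the size of that change uncertain. The log2 changes were -2.10 ± 0.66 for KO-labelled and -0.91 ± 0.81 for rescue-labelled cells (SE), and neither was called. Without preshocked array 13 the change in the KO-labelled line was -2.87 and called (limma adjusted p = 0.0460). Without preshocked array 5 it was -1.32 and not called (0.205).

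Of the enzymes that sulfate carbon 6, Chst7 varied within narrow limits and Chst3 was close to the background. The normalized log2 intensity of Chst7 was 7.32, 7.11 and 7.18 in preshocked KO-labelled arrays, against 7.46, 7.13 and 7.46 in unheated ones. Rescue-labelled arrays had 7.19 and 7.14 when preshocked, against 7.63 and 7.74 when unheated. The groups overlapped in the KO-labelled line, while in the rescue-labelled line both preshocked arrays were lower, with a log2 change of -0.52 ± 0.17 (SE, limma adjusted p = 0.360). Chst3 had a normalized log2 intensity of 3.93, 4.07 and 2.62 in preshocked and 6.71, 4.72 and 3.53 in unheated KO-labelled arrays. In rescue-labelled arrays it was 6.27 and 5.05 when preshocked, against 6.21 and 4.22 when unheated. The groups of Chst3 overlapped in both lines and 3 of its 4 group means lay below 5.65.

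The dermatan sulfate enzyme Chst14 was lower in every preshocked array of both lines. Its deposited intensity was 712, 591 and 546 in preshocked KO-labelled arrays, against 1082, 886 and 920 in unheated ones. Rescue-labelled arrays had 670 and 726 when preshocked, against 1043 and 1376 when unheated. No preshocked array reached the lowest unheated one, whichever the line. The group means of the normalized log2 values were 9.31 ± 0.10 in preshocked and 9.88 ± 0.14 in unheated KO-labelled arrays (SD, n = 3 each), and 9.48 ± 0.01 and 10.19 ± 0.25 in preshocked and unheated rescue-labelled ones (SD, n = 2 each). Log2 changes were -0.58 ± 0.14 for KO-labelled and -0.71 ± 0.18 for rescue-labelled cells (SE), 1.49-fold and 1.64-fold lower, and within the pairs they lay between -0.90 and -0.50.

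Chst15, which makes the disulfated unit of chondroitin sulfate E, was the member with the widest swing in the KO-labelled line. On its brighter probe set the deposited intensity was 33.5, 48.9 and 26.8 in preshocked KO-labelled arrays, against 281.9, 104.1 and 217.0 in unheated ones. Rescue-labelled arrays had 59.5 and 67.8 when preshocked, against 64.4 and 158.9 when unheated. All preshocked KO-labelled arrays were below all other arrays, while in the rescue-labelled line the groups overlapped and array 44 alone stood high. The normalized log2 means were 4.94 ± 0.62 in preshocked and 7.41 ± 0.76 in unheated KO-labelled arrays (SD, n = 3 each), and 6.28 ± 0.08 and 6.82 ± 0.74 in preshocked and unheated rescue-labelled ones (SD, n = 2 each). The log2 change was -2.46 ± 0.45 in the KO-labelled line (SE, 5.52-fold lower), with -3.48, -0.96 and -2.95 within the pairs, and the preshocked mean is again under 5.65, so its size is uncertain. In the rescue-labelled line it was -0.54 ± 0.56, with -0.08 in the pair numbered 31 and 32 and -1.01 in the pair numbered 43 and 44.

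The second Chst15 probe set showed a smaller difference. It had normalized log2 values of 5.23, 5.21 and 5.50 in preshocked KO-labelled arrays, against 6.55, 5.50 and 6.08 in unheated ones. The lowest unheated array stood just above the highest preshocked one, and the log2 change was -0.73 ± 0.43 (SE). In rescue-labelled arrays this probe set had 4.71 and 6.20 when preshocked, against 5.85 and 6.14 when unheated, and the groups overlapped. Averaging both probe sets gave -1.60 for the gene in the KO-labelled line, which was not called (limma adjusted p = 0.119).

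B3galnt1, the globoside synthase, differed mainly between the lines. Its deposited intensity was 39.5, 28.1 and 22.0 in preshocked and 64.3, 38.5 and 3.09 in unheated KO-labelled arrays. The rescue-labelled arrays had 710.8 and 641.9 when preshocked, against 969.0 and 747.5 when unheated. Every KO-labelled array was far below every rescue-labelled array. The deposited intensities of preshocked and unheated arrays overlapped in the KO-labelled line and did not in the rescue-labelled line, where the normalized log2 values overlapped (9.58 and 9.31 when preshocked, against 9.90 and 9.45 when unheated). The normalized log2 means were 4.67 ± 0.11 and 4.04 ± 1.86 in KO-labelled arrays, preshocked and unheated (SD, n = 3 each), both under 5.65, against 9.44 ± 0.19 and 9.68 ± 0.32 in the rescue-labelled ones (SD, n = 2 each). The low array 14 widens the spread of the unheated KO-labelled group. Without it the rescue-over-KO difference in unheated cells was 4.55 log2, against 5.64 with it.

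In the fit over all genes, preshock in the KO-labelled line gave 2 calls at an adjusted p under 0.05 among the 7 genes tested, Chst11 as higher and Chst15 as lower, beside 1.77% of all 10915 genes. This comparison is the one in which Chst15 was picked, so the count is a description and nothing is read from it. The groups did not overlap for 3 genes that were lower (Chst15, Chst12, Chst14), beside 10.7% of all genes, and for 1 that was higher (Chst11), beside 5.63%. The median log2 change of the 7 genes was -0.28, against -0.04 over all genes tested. With adjoining array numbers as a block, 9.15% of all genes were called, and the members called were Chst11 (adjusted p = 0.0306) and Chst14 (0.0353, against 0.104 without the block), while the call of Chst15 ended (0.0588). Among the alternatives, the call of Chst15 held with the deposited scaling, a floor of 32, robust moderation, and without unheated array 12, and ended in the other 14 of 18 settings, each other array left out included (adjusted p from 0.0310 to 0.149 over the 18). The call of Chst11 ended in 12 of 18 (0.0265 to 0.384), among them those without arrays 11, 13, 6, 12, 14, 31 or 43.

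Preshock in the rescue-labelled line rests on arrays that did not enter the choice of Chst15 as far as it is recorded. Results of these arrays were also known when the genes were listed, and which values led to the other genes is not recorded. The counts and the median given here are therefore a description, and nothing is read from them. There 0 of 7 genes were called by limma, against 0.357% of all genes tested, and 2 of 7 had an unadjusted p under 0.05 (Chst14 and Chst7), against 8.36%. Adjusted p was lowest for Chst14, at 0.203, and with the block Chst14 had 0.0581. Both preshocked arrays were below both unheated ones in 4 of 7 genes (Chst12, Chst7, Chst14, Chsy1), against 22.3% of all genes, and in 6 of 7 the preshocked array was lower in both pairs, against 38.9%. The median log2 change was -0.52, against -0.03 over all genes. The exception was Chst11, whose preshocked array was higher by 0.11 and 0.24 in the 2 pairs.

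**Figure D2:**
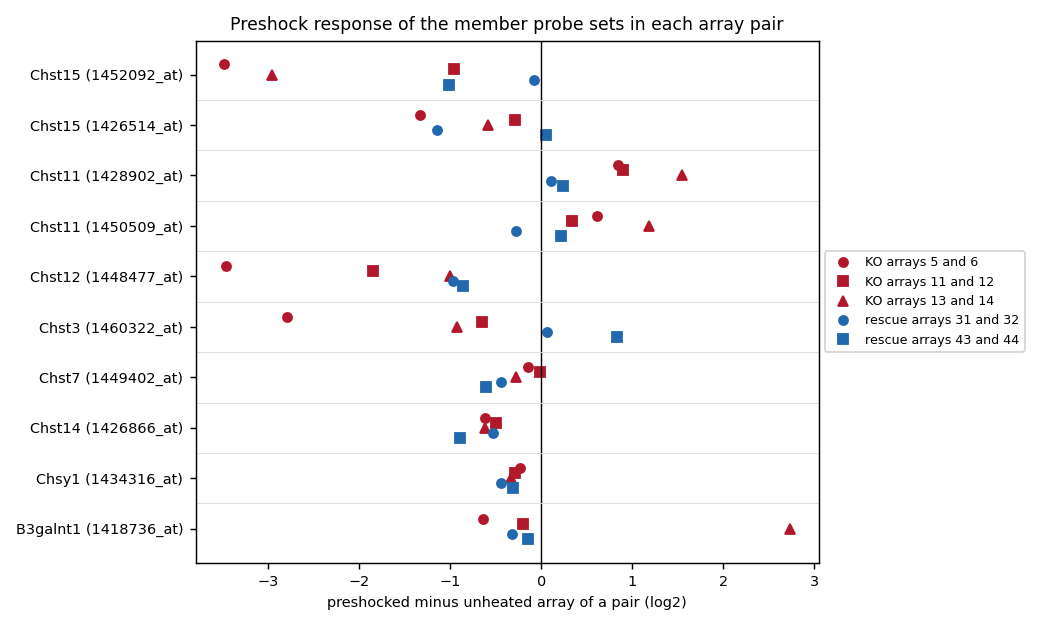
Difference in normalized log2 intensity, preshocked minus unheated, within each of the 5 pairs of adjoining array numbers, for each gene. Points left of 0 are lower in the preshocked array: on the probe sets used for the tests, Chst15, Chst12, Chst7, Chst14 and Chsy1 lie there in all 5 pairs and Chst11 lies right of 0 in all 5.

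Across all 5 pairs, 5 of 7 genes were lower in every preshocked array than in its partner (Chst15, Chst12, Chst7, Chst14, Chsy1), beside 22.0% of all genes tested. Chst11 was higher in every pair, against 12.6% of all genes. These counts are on the probe sets used for the tests and include Chst15, so nothing is read from them. The second Chst15 probe set was lower in 4 pairs and higher by 0.06 in the pair numbered 43 and 44. The second Chst11 probe set was higher in 4 pairs, and stood at -0.28 in the pair numbered 31 and 32. The mean of the 2 lines' responses was added as a comparison after these values were seen and includes the arrays on which Chst15 was picked. In it Chst14 alone was called, at -0.64 ± 0.11 log2 (SE, limma adjusted p = 0.0184), beside 4.42% of all genes. With the block, 4 of 7 genes were called beside 17.4% of all genes: Chst14 (adjusted p = 0.0113), Chsy1 at -0.33 (0.0208), Chst7 at -0.33 (0.0336) and Chst11 at 0.64 (0.0346). Chst15 stood at -1.50 ± 0.36 (0.0575, and 0.0753 with the block) and Chst12 at -1.51 ± 0.52 (0.170, and 0.0568). The call of Chst14 ended without preshocked arrays 11, 31 or 43 or unheated array 44, with the arrays centred on their medians and with no filter (adjusted p from 0.0113 to 0.310 over 18 alternatives). Since these are bulk samples, fewer cells that make a transcript and less of it per cell cannot be told apart.

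The difference between the lines' responses, rescue minus KO, was called for 0 of 7 genes by limma, and for 0% of all genes (adjusted p = 1 for each of the 7). At an unadjusted p under 0.05 there were 2 of 7, against 0.944% of all genes: Chst15 at 1.92 ± 0.72 (95% interval 0.28 to 3.56) and Chst11 at -0.92 ± 0.30 (-1.61 to -0.23). Both include the KO-labelled preshock values and are therefore no independent test. For Chst14 the difference was -0.13 ± 0.23 (-0.65 to 0.39) and for Chsy1 -0.09 ± 0.29 (-0.76 to 0.58). For Chst12 it was 1.19 ± 1.05 (-1.20 to 3.58), an interval that holds both no difference and a large one.

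**Figure D3:**
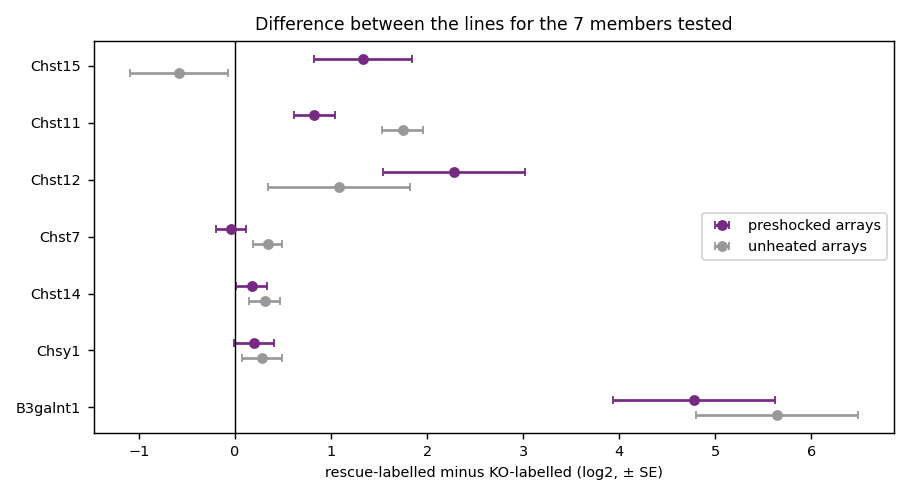
Log2 difference, rescue-labelled over KO-labelled, in preshocked and in unheated arrays for each gene tested, with bars for the standard error of the limma fit. B3galnt1 lies at 4.77 in preshocked and 5.64 in unheated cells, Chst11 at 0.83 and 1.75, and Chst7, Chst14 and Chsy1 lie close to 0 in both, from -0.04 to 0.34.

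Between the unheated lines, B3galnt1 (5.64 ± 0.84 log2, rescue over KO) and Chst11 (1.75 ± 0.21) were called, 2 of 7 beside 0.421% of all genes. Results of this comparison were also available when the genes were listed, and B3galnt1 passed the filter through the rescue-labelled arrays, so nothing is read from the count. Its KO-labelled mean lies under 5.65, so the size of its difference is uncertain. The KO-labelled arrays were below the rescue-labelled ones without overlap for 4 genes (Chst11, B3galnt1, Chst12, Chst7), beside 14.9% of all genes. The block ended both calls (adjusted p = 0.142 for B3galnt1 and 0.0671 for Chst11). Each of these calls also ended in 12 of 18 alternatives. For Chst11 they included those without arrays 11, 13, 12, 14, 31, 43, 32 or 44, and for B3galnt1 those without arrays 5, 11, 13, 12, 31, 43, 32 or 44. Adjusted p ran from 2.4e-05 to 0.228 for B3galnt1 and from 0.0156 to 0.151 for Chst11, and the differences kept their direction in all 18.

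Between the preshocked lines 0 of 7 genes were called by limma, against 0.339% of all genes, and 4 of 7 had an unadjusted p under 0.05 (B3galnt1, Chst11, Chst12, Chst15), beside 14.1%. B3galnt1 passed the filter through its rescue-labelled arrays and Chst15 was picked on the preshocked KO-labelled arrays that enter here, so nothing is read from the count. The differences, rescue over KO, were 4.77 ± 0.84 for B3galnt1 (limma adjusted p = 0.0668), 0.83 ± 0.21 for Chst11 (0.169), 2.28 ± 0.74 for Chst12 (0.252) and 1.34 ± 0.51 for Chst15 (0.306). The KO-labelled means of B3galnt1, Chst12 and Chst15 lie under 5.65 here, which leaves those sizes uncertain. B3galnt1 was called with the arrays centred on their medians (0.0203), a floor of 32 (2.9e-05), robust moderation (0.0350) and without array 14 (2.1e-04). The KO-labelled arrays were below the rescue-labelled ones without overlap for 5 genes, those 4 and Chst14, beside 16.6% of all genes. For Chst7 the difference was -0.04 ± 0.16 and for Chsy1 0.20 ± 0.21. In the fit over all probe sets without a filter, 0 of the 10 probe sets were called in each of the 5 planned comparisons. The shares of all probe sets called were 0.0600% for preshock in KO-labelled and 0.0244% in rescue-labelled arrays, 0.0266% between unheated and 0.0400% between preshocked lines, and 0.00666% for the difference of responses. At an unadjusted p under 0.05 there were 4, 1, 3, 4 and 2 of the 10 in the same order, beside 6.63%, 5.68%, 7.94%, 7.81% and 3.33% of all probe sets. Those 10 include the Chst15 and B3galnt1 probe sets, whose values were known when the genes were listed, so nothing is read from these counts.

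Of 6 genes for chain assembly, 5 were tested and 0 were called by limma with preshock in KO-labelled arrays (2 at an unadjusted p under 0.05, against 12.8% of all genes) or in rescue-labelled arrays (0 unadjusted, against 8.36%), and 3 were lower in all 5 pairs, against 22.0%. Chpf2, named after its value was seen, was among them, at -0.86 ± 0.23 in the KO-labelled line (adjusted p = 0.137, and 0.0370 with the block). With the block 2 of the 5 were called as lower in that line, Chpf2 and Csgalnact1 (0.0358), beside 9.15% of all genes. Of 5 tested genes for the linkage tetrasaccharide, which joins the chain to its protein, 0 were called by limma in either line (1 unadjusted in each). B3galt6, which adds the second galactose of that linker, stood at -1.19 ± 0.26 for KO-labelled and -1.05 ± 0.32 for rescue-labelled cells (limma adjusted p = 0.0697, 0.0265 with the block, and 0.322) and was called in the mean of both, at -1.12 ± 0.21 (0.0224). Its normalized log2 intensity was 7.57, 6.93 and 7.28 in preshocked KO-labelled arrays, against 8.63, 8.46 and 8.25 in unheated ones. Rescue-labelled arrays had 7.28 and 7.65 when preshocked, against 8.09 and 8.96 when unheated. No preshocked array of either line overlapped an unheated one.

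Of 10 genes that modify chondroitin and dermatan chains, 8 were tested, among them Chst15, Chst11, Chst12, Chst7 and Chst14. With preshock in the KO-labelled line Chst11 was called as higher and Chst15 as lower, beside 1.77% of all genes. In the rescue-labelled line 0 were called by limma, against 0.357%, and 3 had an unadjusted p under 0.05, against 8.36%. The list holds members, among them Chst15, which was picked in the KO-labelled comparison, so nothing is read from these counts. The genes tested that are not members were Ust, at 0.17 ± 0.19 for KO-labelled and 0.01 ± 0.24 for rescue-labelled cells, and the epimerases Dse and Dsel, which turn glucuronic into iduronic acid. Dse stood at -0.36 ± 0.29 and -0.43 ± 0.35, and Dsel at -0.47 ± 0.14 and -0.51 ± 0.17. Dsel was called in the mean of both lines (-0.49 ± 0.11, limma adjusted p = 0.0434), as was Chst14, beside 4.42% of all genes. In preshocked KO-labelled arrays Dsel had normalized log2 values of 9.58, 9.62 and 9.74, against 9.94, 10.20 and 10.20 in unheated ones.

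Of 11 tested genes for sulfate and sugar donors, 0 were called by limma with preshock in the KO-labelled line (1 unadjusted, against 12.8% of all genes), and their median was 0.09 log2. With the block 1 was called as lower, the sulfate transporter Slc26a2 (0.0339), beside 9.15% of all genes called with it. Of 7 tested genes for chain breakdown 0 were called (1 unadjusted). Of 11 tested core protein genes Tgfbr3, a proteoglycan coreceptor for TGF-beta, fell in the KO-labelled line by 0.66 on the log2 scale (SE 0.13, limma adjusted p = 0.0455). It stood at -0.56 ± 0.16 in the rescue-labelled line (0.274), while Dcn, Bgn and Vcan, which encode decorin, biglycan and versican, stood at 0.49 ± 0.39, -0.08 ± 0.12 and -0.06 ± 0.15 in the KO-labelled line. Of 14 tested genes for heparan sulfate, a related chain, 0 were called by limma with preshock in the KO-labelled line (1 unadjusted, against 12.8%). With the block 2 of the 14 were called as lower, Ndst2 (0.0335) and Extl3 (0.0405), beside 9.15% of all genes. Between preshocked lines Hs6st2, a heparan sulfate sulfotransferase, was called, at -1.01 ± 0.14 (rescue over KO, 0.0428), a call that the block ended (0.0580). Of 3 tested sulfotransferases of other glycans, Chst1, which sulfates keratan sulfate, was higher in the unheated KO-labelled line, at -2.06 ± 0.31 (rescue over KO, 0.0367). Of 8 tested enzymes of globo and ganglio glycolipids, B3galnt1 alone was called between unheated lines, and Ugcg, which makes their common precursor glucosylceramide, stood at 0.80 ± 0.28 (0.296). With preshock in the KO-labelled line 0 of the 8 were called by limma. With the block 1 was called as lower, St3gal2 (0.0371), beside 9.15% of all genes.

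Over the 10 arrays, the genes whose normalized values followed Chst15 most closely were Ufsp1 (Pearson r = 0.953), Pias1 (0.929), Zfp282 (0.913), Gucd1 (0.896) and Pbx2 (0.884). Those closest to B3galnt1 were Cnn3 (0.975), Fubp1 (0.965), Fuca2 (0.962), Zfp131 (0.958) and Heph (0.958). Heph, for one, had group means of 6.59 and 6.07 log2 in preshocked and unheated KO-labelled arrays, against 9.38 and 9.08 in rescue-labelled ones. These correlations describe 10 arrays that share lines, pairs and a normalization, and they carry no p-value.

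**Figure D4:**
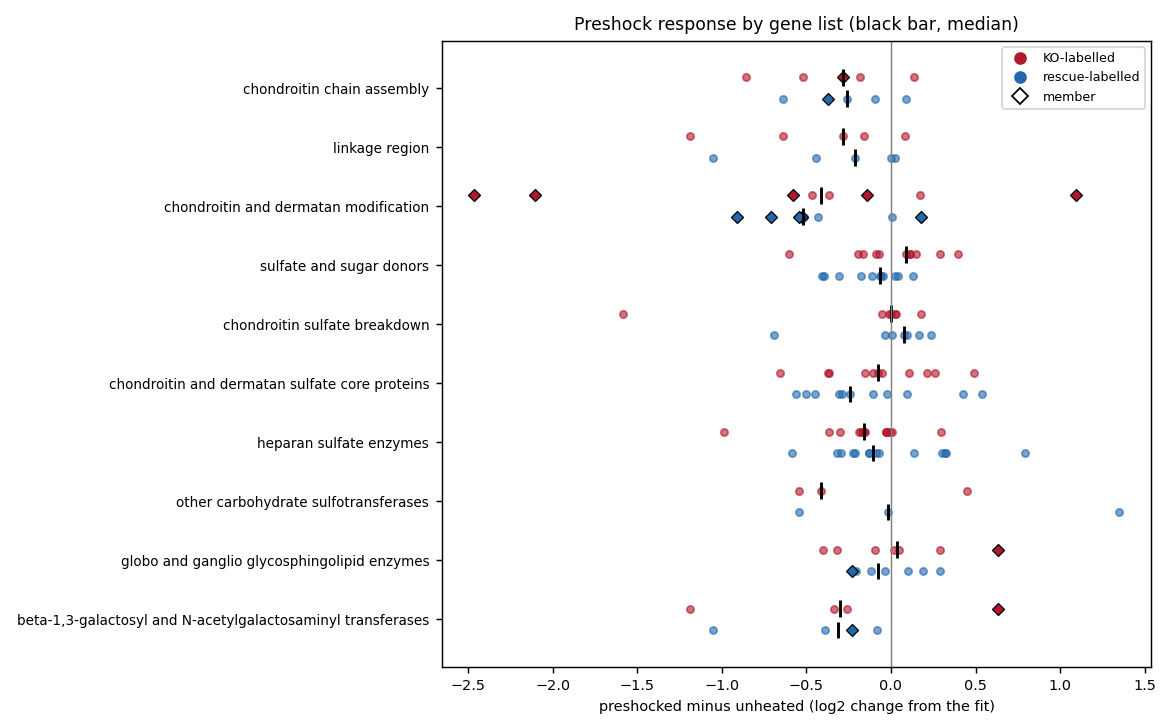
Log2 change with preshock of each tested gene in lists of the pathway, KO-labelled and rescue-labelled arrays, with the genes of a list on a row and its median marked. Most genes of the donor, breakdown and core protein lists lie near 0. Chst15 and Chst12 lie farthest below it in the KO-labelled arrays, and B3galt6 in the rescue-labelled ones.

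Further markers of other cell types moved with some of these results, and their part in them was not tested. Cartilage makes much chondroitin sulfate, and of 8 listed genes of cartilage and bone 6 were on the arrays and 2 were tested. Their summed deposited intensity was 1425 to 1632 in preshocked and 539 to 696 in unheated KO-labelled arrays. It was 1570 to 1571 in preshocked and 365 to 527 in unheated rescue-labelled arrays. Sox9, a transcription factor of cartilage, rose in both lines (2.00 ± 0.26 and 2.32 ± 0.31 log2, limma adjusted p = 0.0104 and 0.0230). It made up most of the preshocked sums, at 1195 to 1445. Sp7, the other gene tested, was called in neither line. Its change was above 0 in the KO-labelled and below 0 in the rescue-labelled line. Col2a1 and Matn1 stood at or under 36.8 on every array. Summed muscle genes (6, of which Acta1 and Myod1 were tested) lay between 608 and 1088 in KO-labelled and between 271 and 363 in rescue-labelled arrays. Acta1, which reached 664, was called as lower in the rescue-labelled line in both comparisons of the lines. The block ended both calls (adjusted p = 0.117 for unheated and 0.0833 for preshocked arrays). Myod1 was called in neither. Its difference was below 0 between unheated and above 0 between preshocked lines. Myog and Myh3 stood at or under 57.1. Summed neural genes (7, of which 5 were tested) lay between 2166 and 2334 in KO-labelled and between 1075 and 1248 in rescue-labelled arrays. Of the control probe sets for 18S ribosomal RNA, those for the 3′ part (9.18 to 10.57 log2 in KO-labelled and 7.18 to 8.35 in rescue-labelled arrays) and the middle (8.48 to 10.07 and 7.04 to 7.58) stood apart between the lines, and that for the 5′ part overlapped (9.57 to 11.16 and 7.37 to 10.62). With the block, 9.15% of all genes were called with preshock in the KO-labelled line. Among them were the macrophage gene Cd14 (adjusted p = 0.0222) and the fibroblast gene Pdgfrb (0.0339), both as lower. Neither was called by limma without the block (0.167 and 0.365). Of the 3 tested macrophage and leukocyte genes 2 stood above 0 and 1 below. Of the 9 tested fibroblast genes 4 stood above 0 and 5 below.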

How the data were processed

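Expression was measured in 10 samples, 1 Affymetrix array each. The authors deposited 1 linear intensity per probe set and array. The software they used to summarise probes was not given in the sources used here. Judged from the values, they scaled each array to a 2% trimmed mean of 500.00. Values under 1 (4935) were set to 1, and log2 values of the deposited intensities were quantile normalized, because array medians differed by up to 1.08 log2. Of the probe sets, 34945 had 1 gene symbol, 932 several and 9160 none, and 64 were controls. Each of 18193 genes was represented by its brightest probe set over all arrays, and the brightest 60% of them, 10915, were tested.

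A model with a mean per group, fitted with limma 3.58.1 and statmod 1.5.0 in R 4.3.3, gave 5 planned comparisons and 1 added after the values were seen. Calls are at a Benjamini-Hochberg adjusted p under 0.05 over all genes, and the procedure was tested on simulated data. The number of arrays limits the precision. All members are named, and of the other lists the called genes with the smallest adjusted p, up to 4 per comparison, and for Chst15 and B3galnt1 the 5 genes most alike in pattern. The members and lists were chosen with earlier results of these data known.

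Adjoining array numbers were taken as pairs, since the deviations from group means correlated within all 5 (0.721, 0.376, 0.552, 0.370 and 0.370) and each of the 10 arrays had its adjoining number as its best partner. The 2 rescue-labelled pairs necessarily have the same correlation, since their groups hold 2 arrays each. For the same reason the best partners of the rescue-labelled arrays are a single outcome and not separate ones. Deviations within each KO-labelled group sum to 0, so those partners are not fully separate either. The pair was a fixed block for preshock comparisons and a random block (duplicateCorrelation, correlation 0.716) between lines. Alternatives were median centring, the deposited scaling, no filter, a floor of 32, the mean of all probe sets of a gene, robust moderation with a trend, the block, and leaving out arrays 5 and 6 or each array. Promoter windows and coordinates come from RefSeq tables of GRCm38.p6, and mapped positions of the probes were not analysed here.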

Additional observations from a re-analysis of the deposited data

Results flagged for a closer look

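Chst3, the carbon 6 sulfotransferase that did not pass the filter, was the only member whose pairs all moved one way in 1 line and the opposite way in the other. Its preshocked arrays were lower in all 3 KO-labelled pairs (-2.79, -0.65 and -0.92 log2) and higher in both rescue-labelled pairs (0.06 and 0.83). In the probe set fit the difference of responses, rescue minus KO, was 1.89 ± 1.44 log2 (SE, 95% interval -1.47 to 5.26) and was not called (limma adjusted p = 0.99999). Its deposited intensity lay between 5.02 and 158.7, and 3 of its 4 group means were under 5.65 log2, the mean of the dimmest gene tested. Groups of 2 and 3 arrays were too small to look for single outlying arrays.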

How the results depend on the processing

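No called value changed its direction under an alternative. Among the members' values under all alternatives, 673 kept their direction and their side of the threshold, 56 lost a call, 14 gained one and 13 uncalled values changed sign. The number of members called with preshock in the KO-labelled line, 2 of 7, was 0 with the arrays centred on their medians, 1 with the deposited scaling (Chst15), and 0 with no filter, with the mean of all probe sets and without arrays 5 and 6, and 0 to 1 when single arrays were left out. Between unheated lines the count of 2 was 0 with the deposited scaling, no filter, the mean of all probe sets and the replicate block for array pairs, and 0 to 2 without single arrays. Between preshocked lines the count of 0 was 1 with median centring, a floor of 32 or robust moderation, B3galnt1 each time, and 0 to 1 without single arrays. In the mean response the count of 1 was 0 with median centring, 3 with the deposited scaling, 0 with no filter, 2 with a floor of 32, 4 with the replicate block, and 0 to 2 without single arrays. Over all 5 planned comparisons the count of 0 member probe sets called was 3 with a floor of 32, 1 with robust moderation and 0 to 2 without single arrays. In the rescue-labelled line and for the difference of responses it was 0 throughout. No filter and leaving out arrays change the number of genes or samples tested; the cause of the other changes was not tested. Over all genes, preshock in the KO-labelled line gave 193 calls (103 higher, 90 lower), 28 with median centring (25 and 3), 28 with no filter (24 and 4), 101 with the mean of all probe sets (62 and 39) and 999 with the block (364 and 635).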
